A study of Mus musculus with 6 samples.

Results

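The promoters of long noncoding RNA (lncRNA) genes were examined for H3K27ac in B16 F10 cells, a mouse melanoma line. The windows were fixed by the gene annotation, not by the measurements. In GENCODE M21, 9930 genes are typed lincRNA, antisense, sense_intronic or processed_transcript, and no gene carries the type lncRNA. Of these genes, 7518 start more than 3 kb from the TSS of every protein-coding transcript, and 1 kb on either side of each such start made 1 window. The 7518 windows comprised 5291 of 5854 lincRNA, 1561 of 2959 antisense, 403 of 790 processed_transcript and 263 of 327 sense_intronic genes. Some windows overlapped each other, so they fell into 7337 separate stretches. Only 289 of the genes bear an assigned name, and the rest have a Gm number, a Rik clone name or a clone accession.

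LncRNAs are transcripts with little or no coding capacity. Some act in the nucleus as scaffolds or in gene silencing, some give rise to small nucleolar RNAs (snoRNAs) or microRNAs, and many have no known function. H3K27ac, acetylation of lysine 27 on histone H3, lies on the nucleosomes next to active promoters and also marks active enhancers, so a peak at an annotated start does not tell whether the RNA is made. B16 cells sown sparsely gain pigment over some days, and the comparison here is between the less and the more pigmented cells.

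Cells were seeded at 100 per cm2 and taken on day 5, then sorted by flow cytometric side scatter into a low pigment (LP) and a high pigment (HP) population, with 2 replicates each. All were the same line with no further treatment named, and fixation is given in the labels as 1% formaldehyde for 10 min. IgG libraries of unsorted cells, 1 for each replicate number, were the controls of the peak calling. They held 8701778 fragments for replicate 1 and 19358733 for replicate 2. Calls and fold enrichments of the replicate sets thus rest on controls of unlike depth. The labels do not say that the replicates came from separate cultures, so a p-value measures only the spread between these libraries. In the limma fits below that spread was pooled over all regions, so every region has the same SE. It is not the error of a single gene, and the smallest p marks the largest log2 ratio. The H3K27ac libraries held 11467942 and 15353176 fragments in LP against 11483830 and 14254904 in HP, with 57942 to 71529 peaks each. The lists give for each peak its width, its fold enrichment over the IgG control and its pileup, the number of fragments over the summit, which was scaled to 1000000 fragments in each library (scaled pileup). Melanocyte markers were in place: 5 of 8 marker promoters had a peak in LP replicate 1 and 8 of 8 in the other libraries, at a summed scaled pileup of 9.85 to 34.5. Of 3 leukocyte markers none had a peak, of 3 keratinocyte markers 1 had a peak in 1 library, of 3 fibroblast markers 1 or 2 had a peak in each library, and of 2 endothelial markers 1 had a peak in replicate 1 of LP and of HP. HP replicate 2 stood apart in signal. Over the lncRNA regions called in all 4 libraries its scaled pileup was higher than that of HP replicate 1 by a median of 0.87 on the log2 scale, whereas LP replicate 2 differed from LP replicate 1 by −0.051.

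The starts of 7 genes are shown because the results below turn on them: 6 had a peak in every library and Xist had none. Each stretch runs from 250 bases before the start to 50 bases after it, 5′ to 3′ on the strand of the gene, from the RefSeq GRCm38.p6 assembly, with CG dinucleotides in capitals.
2900097C17Rik (Norad), chr2:156392930-156393229, minus strand: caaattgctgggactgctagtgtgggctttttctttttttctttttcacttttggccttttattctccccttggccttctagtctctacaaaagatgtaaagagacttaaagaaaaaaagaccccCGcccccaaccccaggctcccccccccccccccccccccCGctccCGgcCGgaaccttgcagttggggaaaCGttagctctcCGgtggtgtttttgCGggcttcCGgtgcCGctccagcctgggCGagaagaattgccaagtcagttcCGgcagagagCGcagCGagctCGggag
Malat1, chr19:5802623-5802922, minus strand: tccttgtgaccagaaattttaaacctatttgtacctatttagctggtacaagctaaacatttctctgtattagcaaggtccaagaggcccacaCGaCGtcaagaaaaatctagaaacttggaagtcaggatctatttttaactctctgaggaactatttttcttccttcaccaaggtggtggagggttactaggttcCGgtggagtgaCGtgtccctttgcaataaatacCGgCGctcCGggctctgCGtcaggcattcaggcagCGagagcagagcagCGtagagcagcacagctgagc
Lncpint, chr6:31220439-31220738, minus strand: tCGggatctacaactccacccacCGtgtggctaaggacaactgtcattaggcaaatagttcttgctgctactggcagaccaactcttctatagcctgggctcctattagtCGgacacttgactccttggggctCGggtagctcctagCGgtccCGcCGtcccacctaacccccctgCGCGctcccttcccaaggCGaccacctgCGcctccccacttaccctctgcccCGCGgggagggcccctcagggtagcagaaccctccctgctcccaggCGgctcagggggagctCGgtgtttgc
Snhg6, chr1:9944069-9944368, minus strand: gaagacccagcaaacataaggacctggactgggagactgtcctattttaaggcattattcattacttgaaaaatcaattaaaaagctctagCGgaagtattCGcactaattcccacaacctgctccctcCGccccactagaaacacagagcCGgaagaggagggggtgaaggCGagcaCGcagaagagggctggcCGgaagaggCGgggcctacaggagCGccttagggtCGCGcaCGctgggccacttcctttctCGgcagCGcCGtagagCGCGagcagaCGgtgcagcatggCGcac
Mir17hg, chr14:115042629-115042928, plus strand: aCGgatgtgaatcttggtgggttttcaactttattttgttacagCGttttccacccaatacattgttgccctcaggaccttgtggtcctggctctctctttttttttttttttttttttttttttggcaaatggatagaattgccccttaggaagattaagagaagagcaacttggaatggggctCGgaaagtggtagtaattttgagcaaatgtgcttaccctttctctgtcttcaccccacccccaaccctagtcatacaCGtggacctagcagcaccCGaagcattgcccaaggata
Gm26797, chr9:122310879-122311178, minus strand: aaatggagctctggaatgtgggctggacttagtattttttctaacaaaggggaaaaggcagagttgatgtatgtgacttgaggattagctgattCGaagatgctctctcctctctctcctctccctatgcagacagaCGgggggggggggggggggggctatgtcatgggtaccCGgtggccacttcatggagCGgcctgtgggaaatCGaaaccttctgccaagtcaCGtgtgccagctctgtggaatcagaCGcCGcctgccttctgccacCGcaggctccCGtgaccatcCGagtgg
Xist, chrX:103483205-103483504, minus strand: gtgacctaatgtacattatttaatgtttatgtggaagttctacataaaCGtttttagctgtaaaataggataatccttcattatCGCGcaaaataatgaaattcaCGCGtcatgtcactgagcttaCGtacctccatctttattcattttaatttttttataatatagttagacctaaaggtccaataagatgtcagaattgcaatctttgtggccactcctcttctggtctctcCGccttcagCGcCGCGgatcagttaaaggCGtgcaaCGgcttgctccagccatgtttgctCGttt

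These stretches hold 14 CG in 2900097C17Rik, 10 in Malat1, 15 in Lncpint, 19 in Snhg6, 5 in Mir17hg, 11 in Gm26797 and 13 in Xist. The Xist start is rich in CG for its base composition, at 1.15 times the number expected, and it had no H3K27ac peak in any library. Mir17hg, at 0.356 times the expected number, had a peak in all of them. The 2 starts that contain the E-box CACGTG, which factors such as Mitf bind, are those of Mir17hg and Gm26797.

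Few of these lncRNA windows, all more than 3 kb from a protein-coding TSS, had a called H3K27ac peak in these cells. A peak lay in 523 of the 7518 windows in LP replicate 1 (6.96%, 95% Wilson interval 6.4 to 7.55), in 860 in LP replicate 2 (11.4%, 10.7 to 12.2), in 814 in HP replicate 1 (10.8%, 10.1 to 11.5) and in 934 in HP replicate 2 (12.4%, 11.7 to 13.2). The intervals cover counting error only. The rate was 9.20% ± 3.17 in LP and 11.6% ± 1.13 in HP (SD, n = 2 each), a difference of 2.43 percentage points. LP replicate 2 lay above HP replicate 1, so the groups overlapped. Within replicate 1 HP was 3.87 points higher and within replicate 2 it was 0.984 points higher. With 2 libraries against 2 the smallest two-sided exact p is 0.333, so an exact test of this difference cannot reach 0.05.

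Protein-coding promoters, which were not filtered by distance to another gene, were called far more often. A peak lay at 44.3% and 52.1% of the 21951 protein-coding windows in LP and at 49.8% and 52.2% in HP. The lncRNA rate was lower by 39.2 ± 1.40 percentage points (SD over 4 libraries), and it was lower in 4 of 4. A looser rule, 3 kb from the gene start of each coding gene instead of every transcript, kept 8137 windows. Of these 348 were called in all 4 libraries, against 260 of the 7518, and the difference was −38.1 points. The part of the distance rule in the difference was not tested. The two-sided exact sign-flip permutation test gave p = 0.125, the smallest that 4 libraries allow.

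Over all called windows, peaks at lncRNA windows were also narrower and lower, and in both classes they were wider and higher in HP. The median width of the strongest peak at a called lncRNA window was 274 and 369 bp in LP against 446 and 614 bp in HP, against 655, 827, 930 and 1328 bp at protein-coding windows. At lncRNA windows the HP mean of the library medians was 1.65 times the LP mean, with 1.63 in replicate 1 and 1.66 in replicate 2. Over lncRNA windows called in all 4 libraries the median widths were 500.5 and 791 bp in LP against 1054 and 1400.5 bp in HP. Protein-coding windows called in all 4 had 681 and 940 bp in LP against 1032 and 1467 bp in HP. In that set the lncRNA peaks were thus wider in HP replicate 1 and narrower in the other libraries. Over all called lncRNA windows the median scaled pileup was 0.872 and 0.847 in LP against 1.31 and 1.40 in HP. Both HP libraries thus lay above both LP libraries in width and in pileup, and the same order held at protein-coding windows, with medians of 3.14, 2.74, 4.27 and 6.94. A median lncRNA peak rested on 10 and 13 fragments in LP against 15 and 20 in HP, which limits the precision of any value from a typical window. In these sorted populations more marked cells, more acetylation per cell and a higher enrichment of the HP libraries as a whole cannot be told apart.

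**Figure D1:**
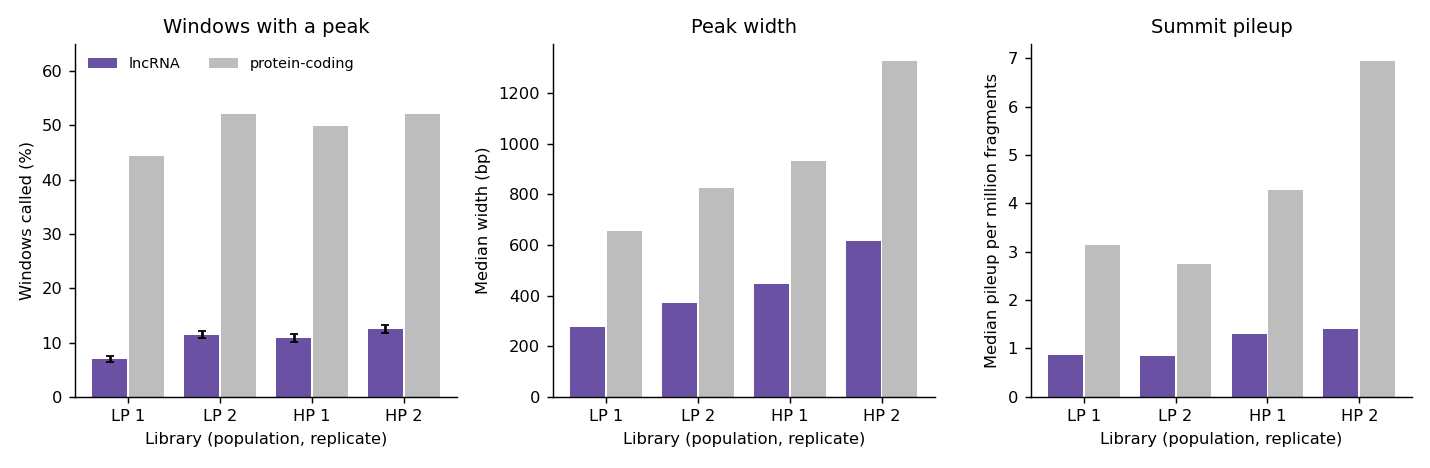
Share of windows with a peak, median width in bp and median summit scaled pileup in each library, for lncRNA windows (purple) and protein-coding windows (grey). Error bars on the lncRNA call rates are 95% Wilson intervals. LncRNA windows lie below protein-coding windows in all 3 measures and all 4 libraries, and width and pileup are higher in both HP libraries than in both LP libraries.

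Most called windows were called in few libraries. No library had a peak at 5828 windows, and 1690 (22.5%) had a peak in at least 1. Of these, 965 (57.1%) were called in 1 library alone and 260 (15.4%) in all 4. At protein-coding windows, 14.0% of those called in any library were called in 1 alone and 70.8% in all 4. The replicates shared fewer lncRNA calls than protein-coding calls: of the windows called in LP replicate 1, 54.1% were called in LP replicate 2, and of those called in HP replicate 1, 71.6% in HP replicate 2, against 95% and 97.0% at protein-coding windows. Windows called in 1 library had low peaks there, with a median of 0.610 and 0.651 in LP against 0.610 and 0.702 in HP. Windows called in all 4 had medians of 1.79 and 1.82 in LP against 2.83 and 5.72 in HP. Protein-coding windows called in all 4 had 3.31 and 3.32 in LP against 4.96 and 8.35 in HP.

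The windows called in every library differed in sequence from those called in none. The CpG content of the 300 bases at the start, as observed over expected, had a median of 0.190 for the windows called in no library, 0.222 for 1 library, 0.308 for 2 or 3 and 0.534 for all 4. All protein-coding starts had a median of 0.524, and those called in all 4 libraries had 0.801. Of 445 lncRNA starts with a ratio above 0.6, 26.1% were called in all 4 libraries, against 2.04% of the 7069 at or below it. The E-box CACGTG lay in 4.34% of the starts called in no library and in 13.1% of those called in all 4. It lay in 5.38% of all gene starts of the annotation and in 11.2% of protein-coding starts called in all 4 libraries. This palindrome reads the same on both strands and itself contains a CG, and its share was not compared at equal CpG content. The M-box TCATGTG, a related sequence at pigmentation gene promoters and searched on both strands, lay in 4.72% and 5.00% of these sets, against 4.42% of all gene starts. A match is a description of the letters and not of a bound site.

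**Figure D2:**
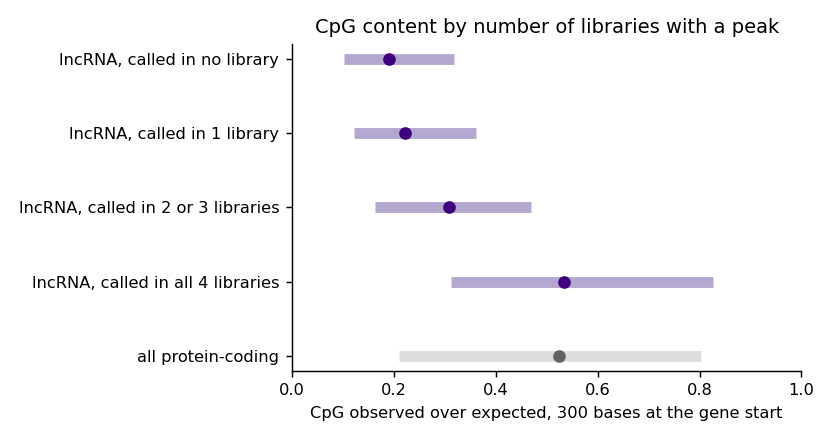
CpG observed over expected in the 300 bases at the gene start (x axis, no unit) for lncRNA genes by the number of libraries with a peak, and for all protein-coding genes. Points are medians and bars run from the lower to the upper quartile. The lncRNA median goes from 0.190 with no library to 0.534 with all 4, next to 0.524 for all protein-coding starts. Protein-coding starts called in all 4 libraries, not drawn, had a median of 0.801.

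Gene type, name and position went with the call rate as well. Of processed_transcript genes 10.9% were called in all 4 libraries, compared with 3.16% of lincRNA, 3.01% of antisense and 0.760% of sense_intronic genes. Genes with an assigned name were called in all 4 in 43 of 289 cases (14.9%), and the others in 3.0%. Windows nearer to a protein-coding TSS were called more often. The share with a peak in any library was 34.3% at over 3 to 5 kb, 31.1% at over 5 to 10 kb, 26.9% at over 10 to 50 kb, 19.6% at over 50 to 200 kb and 10.9% beyond 200 kb. The strongest peak at the window also covered a protein-coding TSS in at most 1 window per library, and the part of signal from the neighbouring coding gene in these shares was not tested.

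Fewer summits lay downstream of the start than at coding genes. Of the summits inside lncRNA windows 57.6% to 61.3% lay downstream of the start in the 4 libraries, against 79.7% to 82.4% at protein-coding windows. The median distance from start to summit was 297 to 339 bp at lncRNA windows and 222 to 257 bp at protein-coding windows, although 15.2% to 16.8% of lncRNA summits lay within 100 bp of the start against 7.38% to 14.8% of coding ones. The bin just downstream of the start held the most lncRNA summits in each library, and every upstream bin held a larger share of the summits than at coding genes.

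**Figure D3:**
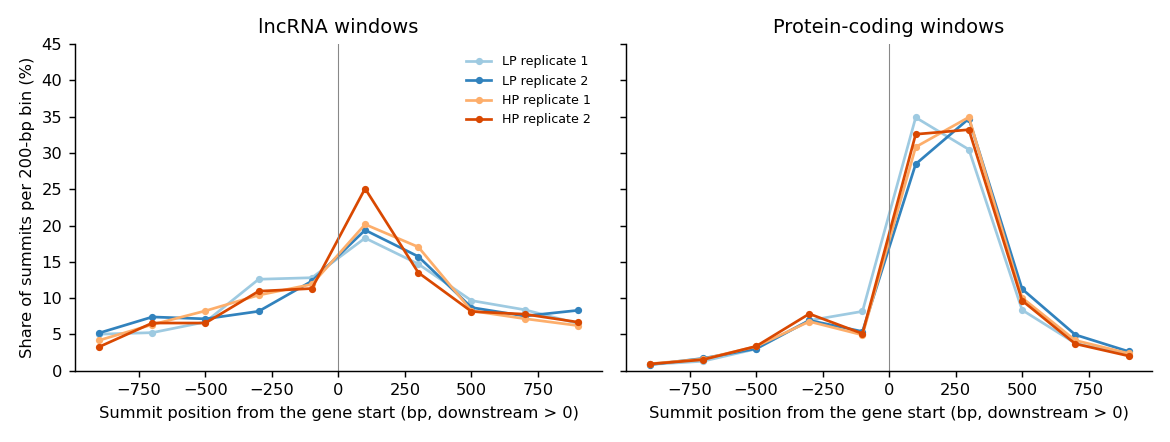
Position of the peak summit relative to the gene start (x axis, bp, downstream positive) as the share of summits per bin of 200 bp (y axis, %), in lncRNA windows (left) and protein-coding windows (right), with 1 line per library. Both profiles are highest downstream of the start, and the lncRNA profile is flatter in all 4 libraries, with 57.6% to 61.3% of its summits downstream against 79.7% to 82.4%.

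The strongest lncRNA promoters were nearly all unnamed genes. Ranked by mean scaled pileup over the libraries, among windows called in all 4 with a fold enrichment of at least 3 in each, the first was 4932422M17Rik, a lincRNA on chromosome 5 whose start lies 3.26 kb from the TSS of Setd1b, a histone methyltransferase gene. Its scaled pileup was 25 and 13.0 in LP against 14.4 and 30.7 in HP. 2610037D02Rik, 3.02 kb from Arid2 on chromosome 15, followed with 19.7 and 12.4 in LP against 12.9 and 24.6 in HP within the window. Its region, the stretch of overlapping peaks that reaches the window, had a higher peak of 22.3 outside the window in HP replicate 1. 6720427I07Rik on chromosome 13, 32.9 kb from any coding start, had 22.0 and 8.01 in LP against 14.5 and 25 in HP. In all 3 windows the groups overlapped, with LP replicate 1 above HP replicate 1.

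1810026B05Rik, 16.6 kb from Chd2 on chromosome 7, had 16 and 8.99 in LP against 18.1 and 20.1 in HP, and its groups did not overlap. 2900097C17Rik, which RefSeq names Norad, is a cytoplasmic lncRNA known to bind Pumilio proteins and to guard chromosome stability. It had 17.6 and 9.64 in LP against 12.5 and 20.7 in HP. The other 5 of the 10 strongest were 1810058I24Rik, B930059L03Rik, E130102H24Rik, Gm14321 and Gm20732. Of the 10 regions, 9 were highest in HP replicate 2 and 8 were lowest in LP replicate 2, and HP was below LP in replicate 1 in 8 and in replicate 2 in 0. The fitted log2 ratios ran from 0.12 to 0.74 with adjusted p from 0.254 to 0.832 (limma), so none of the 10 passed.

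Among assigned names the leading gene was Lncpint, a lncRNA induced by p53 that shares its region with 2210408F21Rik. It had 9.5 and 4.23 scaled pileup in LP against 12.9 and 25.5 in HP, so the groups did not overlap. Its log2 ratio was 1.51 ± 0.54 (SE), with an adjusted p of 0.0661 (limma). Malat1, an abundant RNA of nuclear speckles, had 6.89 and 4.36 in LP against 4.53 and 21.6 in HP. Its peak widened from 1079 and 1386 bp in LP to 2424 and 8153 bp in HP, the widest strongest peak at any lncRNA window. Its level was high in HP replicate 2 alone, and HP replicate 1 lay within the LP values.

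Lockd, 8.58 kb from the cell cycle inhibitor gene Cdkn1b, had 6.71 and 6.51 in LP against 7.84 and 16.4 in HP. Lncppara had 6.19 and 5.15 in LP against 6.44 and 14.7 in HP, and Fbxl12os had 5.84 and 4.30 in LP against 3.48 and 18.0 in HP. Lockd and Lncppara had both HP libraries above both LP libraries, by a small margin in replicate 1, and Fbxl12os did not. Of all regions fitted, 74.8% had this order. Ptpmt1 and Tmem250-ps, the other two high names beside the microRNA hosts and Jpx below, carry the symbol of a coding gene and of a pseudogene, although the annotation types these entries as noncoding. Over the 10 named genes the log2 ratio ran from 0.19 to 1.51 and the adjusted p from 0.0661 to 0.747 (limma).

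**Figure D4:**
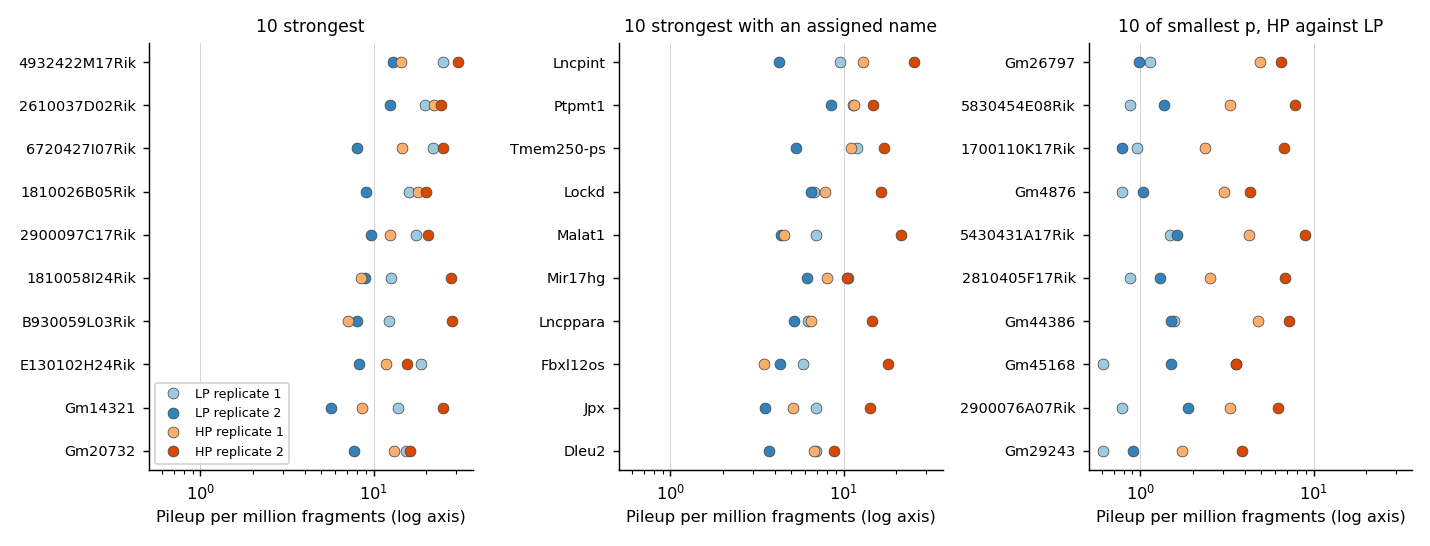
Summit scaled pileup (x axis, log scale) of the region at each named lncRNA start, with 1 point per library (LP blue, HP orange, replicate 2 darker). Left, the 10 strongest members. Middle, the 10 strongest with an assigned name. Right, the 10 members of smallest p between HP and LP, in which both HP points lie above both LP points in all 10. With each library centred on its median the log2 ratio is below 0 in the left panel and above 0 in the right panel. Centring shifts every ratio alike, and the right panel was picked for high ratios.

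A locus on chromosome 17 had far more fragments than any of these but little enrichment over the control. The starts of Gm26917, Gm42418 and AY036118 lie at positions 39843013, 39846958 and 39848035, in a stretch of the assembly that holds ribosomal RNA gene sequence. Gm42418 had 92.0 and 29.5 in LP at fold enrichments of 2.56 and 2.5 over the IgG control, and no HP peak within its window. AY036118 had 71.5 and 23.4 in LP and 19.2 in HP replicate 2, at fold enrichments of 1.90 to 2.78. Gm42418 had a peak in 2 libraries and the other two in 3, so none entered the ranking. Their reads may come from any copy of the repeated sequence. The next members with an enrichment under 3 in any library were low, with 4921514A10Rik at 1.95 in LP replicate 2 and 4.42 in HP replicate 2 and Gm8075 at 1.11 in LP replicate 2 and 2.79 and 4.35 in HP.

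Host genes of snoRNAs, which guide the modification of ribosomal RNA, had a peak in at least 1 library in 9 of 12 cases and in all 4 libraries in 8. Over all lncRNA windows these shares were 22.5% and 3.46%, and over the 289 genes with an assigned name 37.7% and 14.9%, and no difference between a gene list and these shares was tested. The 3 hosts with no peak were Meg3, Rian and Snhg14, which are imprinted. Snhg6 had 4.36 and 5.28 in LP against 6.10 and 10.4 in HP, Snhg15 had 4.53 and 2.87 in LP against 4.62 and 12.6 in HP, and Epb41l4aos had 4.36 and 3.97 in LP against 5.14 and 11.5 in HP. HP lay above LP in all 3, with the margin set mostly by HP replicate 2. Snhg17 differed more evenly, with 1.57 and 2.28 in LP against 4.70 and 6.45 in HP, a log2 ratio of 1.54 ± 0.54 (SE) and an adjusted p of 0.0624 (limma). Of the 8 hosts with a peak in all 4 libraries, 6 had HP above LP without overlap, beside 74.8% of all 12084 regions fitted. The groups overlapped in Snhg7os, with 2.70 and 1.76 in LP against 2.61 and 5.19 in HP. They also did in the region of Snhg8, with 1.83 and 1.76 in LP against 1.57 and 2.95 in HP. The Snhg8 window also held higher peaks outside this fitted region. These had 2.53 and 3.13 in LP against 3.05 and 10.7 in HP and overlapped too. None of the 8 passed, with a median log2 ratio of 0.84 beside 0.92 over all regions. Snhg5 had no peak in LP replicate 1, and had 0.847 in LP replicate 2 and 1.57 and 2.88 in HP.

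Of 12 microRNA host genes, 5 had a peak and 3 had it in all 4 libraries. Mir17hg, the host of the miR-17 cluster with its many growth-linked microRNAs, had 10.6 and 6.12 in LP against 8.01 and 10.5 in HP, and its groups overlapped. Dleu2, the host of miR-15a and miR-16, had 6.89 and 3.71 in LP against 6.71 and 8.84 in HP, which also overlapped. Mir155hg had 1.92 and 3.13 in LP against 5.14 and 6.52 in HP, with HP above LP in both replicates and an adjusted p of 0.104 (limma). Mir99ahg had 0.586 in LP replicate 2 and 1.22 and 1.33 in HP, and Mir670hg 1.31 and 0.842 in HP only. The 7 hosts with no peak in any library included Mir124a-1hg, Mir124-2hg and Mir9-3hg, hosts of microRNAs of the nervous system, and Mir142hg, the host of a microRNA of blood cells.

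Nuclear and other well-studied RNAs had peaks in 4 of 5 cases, in all 4 libraries each. Neat1, the scaffold of paraspeckles, shares its region with Frmd8os and had 2.70 and 2.41 in LP against 4.27 and 11.9 in HP within the window (3.23 over the region in LP replicate 1), with widths of 2101 and 2678 bp in LP against 5227 and 7913 bp in HP. 1700020I14Rik, which RefSeq names Oip5os1 and which is known to trigger decay of miR-7, had 3.58 and 4.17 in LP against 5.4 and 13.3 in HP. Both had HP above LP without overlap, as had 74.8% of all regions fitted, with adjusted p of 0.0871 and 0.123 (limma). Miat had no peak.

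Of 8 p53- and growth-linked genes, 4 had a peak. Pvt1, which lies next to Myc at 50.6 kb, had 3.58 and 3.52 in LP against 5.92 and 8.77 in HP. Trp53cor1, a p53 target 11.8 kb from Cdkn1a, had 2.35 and 2.28 in LP against 3.22 and 4.42 in HP. These and Lncpint had HP above LP without overlap, as had 74.8% of all regions fitted, and none passed. Hotair, which lies in the Hoxc cluster, had 0.586 in LP replicate 2 alone, at a fold enrichment of 3.87. Rmst, Sox2ot and Dlx6os1, lncRNAs of the developing nervous system, and Gm14005, which RefSeq names Morrbid, had none.

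Of 7 imprinted genes 3 had a peak, and of 5 genes of X dosage compensation 2 did. Kcnq1ot1 and Airn, each antisense to a coding gene, were called in all 4 libraries. The imprinted Kcnq1ot1 had 1.48 and 1.5 in LP against 2.53 and 5.33 in HP. Airn had 0.610 and 0.586 in LP against 0.958 and 1.75 in HP. In both genes HP lay above LP without overlap, as in 74.8% of all regions fitted. Peg13 had a peak in HP replicate 2 alone and H19, Meg3, Rian and Mirg had none. Among the X-linked genes Jpx, an activator of Xist, had 6.98 and 3.52 in LP against 5.14 and 14.2 in HP, and Firre had a peak in every library at no more than 2.67. Xist, Tsix and Ftx had no peak. No member of any of these lists passed the test in either direction.

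Of 9 lncRNA genes within 100 kb of a pigmentation gene, 4 had a peak and none had it in all 4 libraries, beside 22.5% and 3.46% of all lncRNA windows. Gm28199 lies 24.1 kb from Mlph, a melanosome transport gene, and nearer, at 5.6 kb, to a TSS of Rab17. It had no peak in LP and 3.13 and 4.35 in HP. Gm49782, 34.9 kb from Pmel and 4.76 kb from Suox, had 0.959 in LP replicate 1 and 0.958 and 0.842 in HP. Gm44506, antisense within Oca2, had 0.912 in LP replicate 2 and 0.772 in HP replicate 2. Gm26773, 55.6 kb from Dct and 24.9 kb from Tgds, had 0.651 in LP replicate 2 alone. Thus Gm28199 alone differed between the populations in both replicates, and the 3 others had peaks below 1 in every library that called them.

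Windows called in both libraries of 1 population and in neither of the other were mostly HP windows, whereas those with a peak in any library of 1 population alone were about as many in LP. Both HP libraries and neither LP library had a peak at 136 of the 7518 windows (1.81%), compared with 1.55% of protein-coding windows and 3.94% of all 182956 merged regions. Both LP libraries and neither HP library had a peak at 14 (0.186%), compared with 0.0957% and 0.249%. These shares have unlike bases, since every merged region holds a peak and most lncRNA windows hold none. Of windows with a peak in any library, 8.05% of lncRNA and 2.63% of protein-coding windows were called in both HP and neither LP. The converse held for 14 of 1690 and 21 of 12936 such windows. A peak in at least 1 HP library and none in LP was found at 590 windows (7.85%), and the converse at 525 (6.98%), compared with 4.65% and 5.25% of protein-coding windows. Within pairs of the same replicate number, a mean of 478.5 windows were called in HP alone and 296 in LP alone. The 136 windows had a median of 1.13 and 1.26 in HP. The highest among them was 1810012K08Rik with 11.1 and 17, followed by Gm12974 with 1.22 and 11.3 and Gm39458 with 2.53 and 6.17. In these 3 genes the HP peak belonged to a region that also had LP peaks, which ended outside the window. That held for 16 of the 136, and 120 had no LP peak in the merged region, although 66 had an LP peak within 5 kb. Gm28199, above, and Gm13056, 22.8 kb from Epha2, with 3.05 and 4.0 in HP, had none in the region.

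The 14 windows called in LP alone were led by Gm42418 at the ribosomal locus, the 1 of the 14 whose region also held an HP peak, outside the window. The next were Gm28800, with 0.959 and 1.11, and Gm13025, with 1.05 and 0.977. These are values near the median of LP peaks at lncRNA windows.

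Where all 4 libraries had a peak, levels were compared with limma on the log2 scaled pileup. A region was a stretch of overlapping peaks from the 4 lists, 12084 regions had a peak in each library, and 275 lncRNA windows reached 257 of them. HP was higher in 16 of the 257 regions (6.23%) and lower in 0 at an adjusted p of at most 0.05, against 485 of all 12084 (4.01%) higher and 0 lower. With an unadjusted p under 0.05, 107 (41.6%) were higher and none lower, against 36.2% higher over all regions. Both HP values exceeded both LP values in 189 regions (73.5%), against 74.8% of all. The median log2 ratio was 1.00, beside 0.92 over all regions, and the difference between these sets was not tested. These sets are not at equal level, with a median scaled pileup of 2.57 over the lncRNA regions and 3.52 over all. Split at the quartiles of mean level, from low to high, 7.25%, 7.25%, 1.52% and 0.033% of all regions passed as higher. Among the 88, 83, 47 and 39 lncRNA regions at these levels, 7.95%, 8.43%, 4.26% and 0% did. The part of level in the differences between the sets was not tested.

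The 16 regions belong to 17 genes, since Gm45846 and Gm45847 share a region. All 17 have Gm or Rik names, 13 are lincRNA and 4 antisense, and their log2 ratios ran from 1.68 to 2.42. Gm26797, a lincRNA on chromosome 9 with its region at chr9:122310568-122311866, 16.5 kb from Ano10, had the smallest p. It had 1.13 and 0.977 in LP against 4.88 and 6.52 in HP, a log2 ratio of 2.42 ± 0.54 (SE) and an adjusted p of 0.0208 (limma). 5830454E08Rik, on the same chromosome and 3.74 kb from the ribosomal protein gene Rpl14, had 0.872 and 1.37 in LP against 3.31 and 7.86 in HP (adjusted p = 0.0329, limma). Its start, at 0.982 times the expected CG, was 1 of 4 among the 17 with a ratio above 0.6.

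1700110K17Rik, antisense within Gramd1b, had 0.959 and 0.782 in LP against 2.35 and 6.73 in HP in its region, which lies mostly outside the window, so that the window itself held a peak in LP replicate 2 and HP replicate 2 alone. Gm4876 had 0.785 and 1.04 in LP against 3.05 and 4.28 in HP, and 5430431A17Rik, 4.71 kb from Josd2, had 1.48 and 1.63 in LP against 4.27 and 8.98 in HP. The other five named by p were 2810405F17Rik, Gm44386, Gm45168, 2900076A07Rik and Gm29243, with adjusted p of 0.0382 to 0.0450 (limma). All 17 had HP above LP in both replicates, but they were picked for their high ratios. Their LP levels were low, from 0.610 to 3.13, and the HP levels ran from 1.74 to 18.9.

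The calls depended on the scaling, and the ratios also on single libraries. With each library centred on its median, 0 of the 257 regions passed in limma. The median log2 ratio was −0.0083 and 127 of 257 ratios were above 0. At an unadjusted p under 0.05 in that limma fit, 3.5% were higher and 1.17% lower in HP, against 1.46% and 2.28% of all regions. Centring lowers every log2 ratio by the same amount, so the 17 genes, picked for high ratios, kept centred values of 0.67 to 1.41. With the replicate number as a block 5 regions passed, against 0.728% of all regions, and these were Gm26797, 5830454E08Rik, 1700110K17Rik, Gm4876 and 5430431A17Rik. Without HP replicate 1, the weaker HP library, 177 regions (68.9%) passed, against 57.3% of all regions. Without LP replicate 1, LP replicate 2 or HP replicate 2 in turn 0 passed, while 36, 46 and 52 regions had an unadjusted p under 0.05 and a higher HP level, against 8.96%, 14.3% and 16.7% of all regions.

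The difference between the populations was not even across levels or replicates. Within replicate 1 the median log2 ratio of the lncRNA regions was 0.56 and within replicate 2 it was 1.49, as against 0.57 and 1.30 over all regions. With all regions split at the quartiles of mean level, the 39 lncRNA regions above the upper quartile had a median log2 ratio of −0.12 in replicate 1 and 1.33 in replicate 2, and 23 of them (59.0%) were lower in HP in replicate 1. Over all regions above that quartile 33.9% were lower. Below the lower quartile the 88 lncRNA regions had medians of 0.89 and 1.29, and 13 (14.8%) were lower in HP in replicate 1. In replicate 2 no lncRNA region was lower in HP, against 1.39% of all regions. The part of library depth, fragment length and enrichment in these ratios was not tested.

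**Figure D5:**
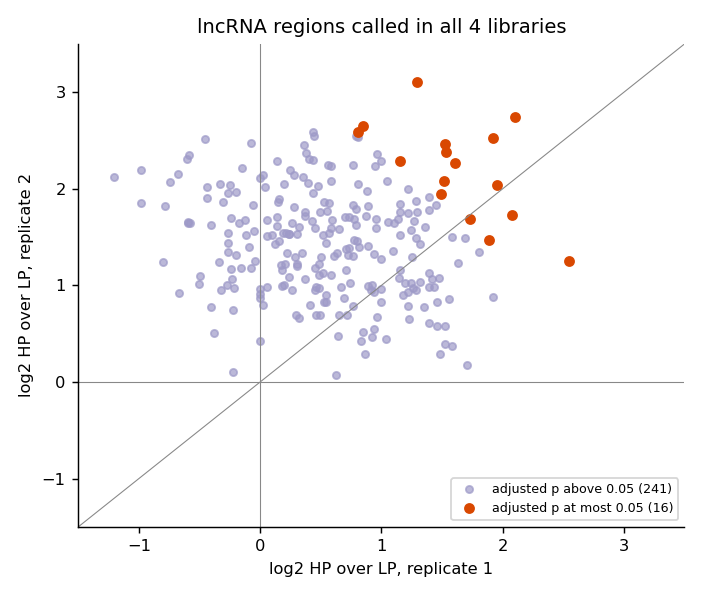
Log2 ratio of HP to LP scaled pileup in replicate 1 (x axis) and replicate 2 (y axis) for the 257 lncRNA regions called in all 4 libraries, with the 16 regions at an adjusted p of at most 0.05 in orange. The diagonal marks equal ratios. In replicate 1, 55 regions (21.4%) lie below 0, against 17.8% of all regions fitted. In replicate 2 none does, against 1.39% of all. The orange points, picked for high ratios, lie above 0 in both replicates.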

How the data were processed

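H3K27ac ChIP-seq peak lists of 4 libraries (LP and HP, replicates 1 and 2) were used, grouped by the labels. The authors trimmed the reads with Trimmomatic 0.33, aligned them to mm10 with Bowtie2 2.5.1 and called narrow peaks in each library with MACS 3.0.0b1 in paired-end mode at a q-value of at most 0.05, keeping duplicates, with the matching IgG library as control. The deposited pileup is a coverage signal, the unscaled number of fragments over the summit. The authors' fold enrichment, a ratio to the local background, served as a filter, as did the −log10 q-values, and the −log10 p-values went unused. Each pileup was scaled to 1000000 fragments, by its library's total. Depth was 11467942 to 15353176 fragments per library, so 1 fragment is a coarse step for a peak of 10 to 20 fragments.

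Gene starts came from GENCODE M21 (GRCm38, the assembly of mm10). A window was called where a peak overlapped it by at least 1 bp, and the peak of highest pileup gave its width and level. Peaks were merged into regions, the highest summit gave a region's level, and the region nearest to the start was assigned to a window. With limma 3.58.1 (R 4.3.3) on every region that had peaks in all 4 libraries, HP was compared with LP on log2 values, with no pseudocount, since no value is 0, and Benjamini-Hochberg adjustment over all 12084 regions. The prior degrees of freedom were infinite, so 1 SE of 0.54 holds for every region. The software was Python 3.11.15 with numpy 2.4.6, pandas 2.3.3, matplotlib 3.10.9 and scipy 1.17.1. Overlap, merging and the fit were tested on simulated data.

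Replicates were paired by number in an alternative fit, since libraries of a replicate set were made from equal DNA and shared an IgG control. The difference between replicates correlated at 0.0153 between LP and HP over all regions and at −0.176 over the lncRNA regions. Genes were named as the 10 strongest members and the 10 strongest with an assigned name, up to 5 with low enrichment, up to 10 by p among those passing limma, up to 5 and 3 called in 1 population alone, and those on fixed lists. List names not found in GENCODE were matched through older symbols in RefSeq, and Dino was not matched. The members, lists and tests were chosen with earlier results of these data known. Alternatives varied the q-value, the fold enrichment, the overlap, the window, the distance and the starts used, list size, scaling, the summit measure, fragment length, the block and each replicate. Reads were not used here, so a window with no peak has no value.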

Additional observations from a re-analysis of the deposited data

How the results depend on the processing

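The value for each of 9 results was recomputed under its alternatives. In 71 of 99 cases it stayed within the spread between replicates, or for a count within 1.5 times. Starts of all transcripts gave 206 windows called in both HP and neither LP, 534 called in all 4 libraries and a call rate difference to coding windows of −37.4 points, over more windows. The 14 windows called in LP alone became 6 with an overlap of at least 200 bp, 8 with 500 bp and 28 with 2 kb on either side of the start. Compared within pairs (replicate block), a mean of 478.5 windows were called in HP and not in LP and 296 in LP and not in HP. Without 1 replicate the counts were 444 to 513 windows in HP alone, 222 to 370 in LP alone and 301 to 490 in all libraries left. The call rate difference was then 0.984 to 3.87 points and that to coding windows −40.2 to −38.2. The width ratio was 1.79 from summed lengths, 1.61 at a q-value of at most 0.01, 1.70 at a fold enrichment of at least 3 and 1.90 over windows called in all 4 libraries, and 1.63 to 1.66 without 1 replicate. The median log2 ratio was −0.0083 with centred libraries, 0.028 with quantile normalization and 0.60 to 1.43 without 1 library. The limma count of higher regions was 0 with centring, quantile normalization or mean summits (9, 9 and 88 at an unadjusted p under 0.05), 1 per fragment length, 5 with the replicate block, and 0 to 177 without 1 library. With both populations in each replicate set, the block cannot change a log2 ratio or the call rate difference. No region was lower in HP at an adjusted p of at most 0.05 in any fit. The count with no LP peak anywhere in the merged region, 120, and the 13 for the converse were chosen after seeing the data. Causes of these changes were not tested, and depth limits the many windows with 10 to 20 fragments.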
